A study of Arabidopsis thaliana with 12 samples.

Results

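The 113 genes described here are named Arabidopsis thaliana genes whose array signal was far lower after a day in the cold. They were chosen by the deposited intensities themselves. Each gene had a probe annotated to that gene alone, a value above 0 on all 12 arrays, a highest value at 4 °C below its lowest value at 20 °C, and a mean at 4 °C of at most 35% of its mean at 20 °C. Of 3439 probes, 692 carried 1 gene, 614 of these were above 0 on all 12 arrays, 322 of those did not overlap and were lower at 4 °C, and 129 met the 35% limit. Of these, 16 were left out by name. Because the rule used the only contrast of the series, the level of these genes in the 2 groups is a description and carries no test.

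The study compared wild-type plants of the ecotype Columbia 0 in medium light. One group of 6 arrays came from plants grown at 20 °C, the other group of 6 from plants moved to 4 °C for 24 h in medium light. The submitters call the cold condition photoinhibitory, which means that absorbed light harms photosystem II faster than it is mended. The labels give no tissue, plant age or pooling, and total RNA from whole samples cannot tell fewer cells of a type from less RNA per cell.

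Plants that meet cold in the light have to slow growth while enzymes of carbon fixation lag behind light capture, and they remodel membranes, plastids and the RNA and protein machinery over hours to days. In plastids, lipid droplets called plastoglobules, coated with fibrillin proteins, hold quinones, tocopherol and the remains of thylakoid lipids, and they enlarge under light stress.

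All values are the authors' deposited intensities on a linear scale, with a mean close to 1 on every array. Within a group, array 1 resembled array 2, array 3 resembled array 4 and array 5 resembled array 6 more than the rest, so each such pair was averaged and counted as 1 sample, and a mean ± SD has n = 3. Nothing in the labels says that the pairs came from separate plants, so the spread may be technical. Over the 3378 features above 0 on at least 1 array, limma on pair means at an adjusted p of 0.05 called 49.6% lower and 6.87% higher, and the median log2 change (4 °C minus 20 °C) was -0.74. This balance depended on the scaling, since median centring gave 645 features lower and 1005 higher and quantile normalization 692 and 658. Of the 3107 features above 0 on all arrays, 20.1% met the rule's limits on overlap and ratio, and the share was 21.1% of features with 1 gene, 20.2% of those with several genes and 19.7% of those with none. Ratios this low were about as frequent among probes without a gene name as among named ones.

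Across the 113 genes, the mean at 4 °C was between 7.81% and 34.97% of the mean at 20 °C, with a median of 25.4%. The median was 59.4% in all 614 named probes above 0 on all arrays. In the 501 outside the set it was 70.1%, a difference that the rule itself widens. Of the 113, 3 kept 10% or less, 12 kept 15% or less, 24 kept 20% or less and 51 kept 25% or less. Their mean intensity at 20 °C ran from 0.156 to 2.06 with a median of 0.604, against a median of 0.607 in the other named probes, and 56 of the 113 lay above the median of all named probes. None was among the tenth of probes with the highest mean intensity. For 83 genes the lowest array at 20 °C was at least 2 times the highest array at 4 °C, for 30 at least 3 times, and the narrowest gap was 1.23 times.

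**Figure D1:**
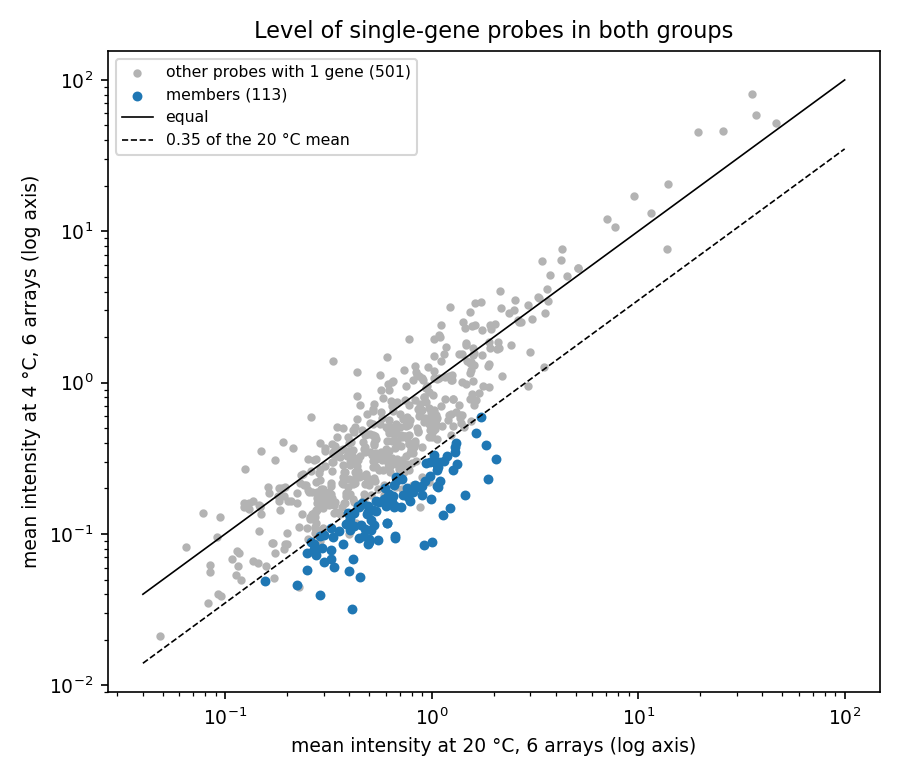
Mean intensity at 20 °C (x axis) and at 4 °C (y axis), both on log axes and over 6 arrays, for the 614 probes with 1 gene that were above 0 on all arrays. The 113 chosen genes (blue) lie on or below the dashed line at 0.35 of the 20 °C mean, and grey points below that line are genes left out by name or with overlapping groups.

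The gene with the smallest remainder was AT5G48130, of the NPH3 family, whose founding member acts in phototropism as an adaptor of ubiquitin ligases. Its arrays lay between 0.387 and 0.435 with a median of 0.405 at 20 °C, and between 0.00367 and 0.0740 with a median of 0.0210 at 4 °C. The groups were far apart, but the cold values themselves ran over a wide range, with the lowest on array 1 and the highest on arrays 3 and 4. The log2 change was -4.36 ± 0.77 (SE), and it ran from -5.25 to -3.73 when a pair of arrays was left out. AT2G31920, which has no role given here, lay between 0.865 and 1.096 with a median of 1.01 at 20 °C, and between 0.0307 and 0.142 with a median of 0.0907 at 4 °C, and kept 8.93%. Its pair means were 0.9996 ± 0.0826 at 20 °C and 0.0892 ± 0.0353 at 4 °C, a log2 change of -3.62 ± 0.35 (SE). AT4G38670, of the thaumatin family of secreted defence-type proteins, lay between 0.507 and 1.16 with a median of 1.06 at 20 °C, and between 0.00837 and 0.178 with a median of 0.0814 at 4 °C. Its 20 °C values were uneven, since arrays 3 and 4 read 0.507 and 0.568 while the other 4 were above 1. Its log2 change was -3.94 ± 0.82 (SE) and ran from -4.61 to -3.06 when a pair of arrays was left out.

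AT2G32040 belongs to a family of folate and biopterin carriers, and a member of this family moves folates across the plastid envelope. Its arrays lay between 1.17 and 1.32 with a median of 1.199 at 20 °C, and between 0.0941 and 0.187 with a median of 0.167 at 4 °C. No array at 20 °C was under 6 times the highest array at 4 °C, the widest gap of all 113 genes at 6.25 times. AT5G15390, of the SpoU family of methyltransferases that modify tRNA or rRNA, lay between 1.305 and 1.67 with a median of 1.44 at 20 °C, and between 0.148 and 0.224 with a median of 0.180 at 4 °C. Relative to their mean its cold values had the smallest spread of the 10 genes with the smallest remainder, with pair means of 1.44 ± 0.120 at 20 °C and 0.181 ± 0.0169 at 4 °C (SD, n = 3), a log2 change of -3.00 ± 0.14 (SE). AT5G06930, with no role given here, kept 12.2%, and its cold values differed between pairs, from 0.0941 on array 2 to 0.336 on array 5. The 20 °C arrays lay between 1.64 and 2.24, the pair means were 1.88 ± 0.258 at 20 °C and 0.230 ± 0.102 at 4 °C, and the log2 change was -3.15 ± 0.38 (SE).

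The Kelch-repeat F-box gene AT4G39570 kept 11.6%, with cold arrays between 0.0744 and 0.183 and 20 °C arrays between 1.03 and 1.31. Its log2 change was -3.16 ± 0.24 (SE). AT3G59300, with no role given here, kept 11.7%, from values between 0.4004 and 0.540 at 20 °C to values between 0.0266 and 0.0742 at 4 °C, a log2 change of -3.18 ± 0.22 (SE). AT1G25500, of the choline-transporter-like family of membrane proteins, kept 13.9%, and its cold arrays read from 0.00880 to 0.0684, with low values on arrays 1 and 3 while arrays 2 and 4 were close to the rest. At 20 °C it lay between 0.230 and 0.343, and the log2 change was -3.19 ± 0.40 (SE). AT3G44610, a protein kinase of the plant AGC class, had 0.664 ± 0.0289 at 20 °C and 0.0936 ± 0.0207 at 4 °C, or 14.1%, a log2 change of -2.90 ± 0.19 (SE). In each of these 10 genes the lowest array at 20 °C was at least 2.85 times the highest at 4 °C.

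**Figure D2:**
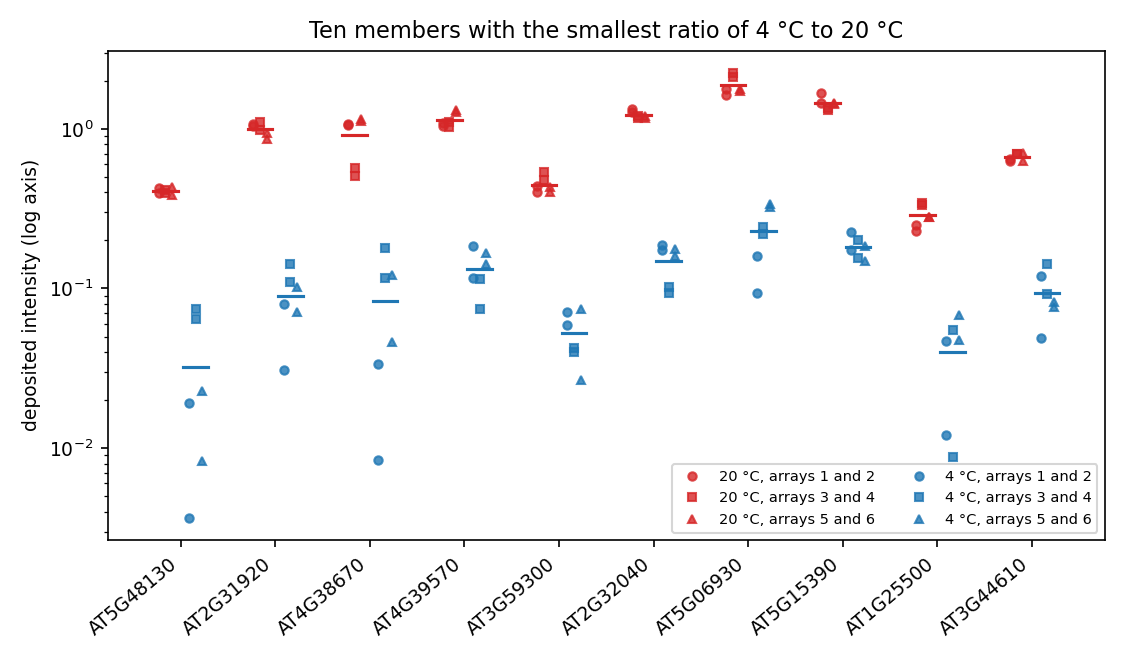
Deposited intensity (log y axis) of each of the 12 arrays for the 10 genes with the smallest ratio of 4 °C to 20 °C, with 20 °C in red and 4 °C in blue, symbols marking the 3 pairs of arrays and lines the means over pairs. The red and blue points do not overlap in any gene, and the cold values of AT5G48130, AT4G38670 and AT1G25500 spread far more on this scale than those of AT5G15390.

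From here on, genes are grouped by role, and the groups were formed after the values were seen. Genes with the same roles among the other named probes were mostly not counted. The group sizes are thus no result about the roles. For scale, 21.1% of features with 1 gene above 0 on all arrays met the rule's limits on overlap and ratio. Genes named for ubiquitin-dependent protein turnover include several kinds of adaptor. Kelch-repeat F-box proteins pick substrates for SCF-type ubiquitin ligases, and 4 such genes are named here, AT4G39570 above and 3 others. AT3G06570 had 0.551 ± 0.0248 at 20 °C and 0.0913 ± 0.00409 at 4 °C, with all 6 cold arrays between 0.0733 and 0.104. AT1G22040 had 0.711 ± 0.0881 at 20 °C and 0.151 ± 0.00800 at 4 °C. AT2G22050 had 0.326 ± 0.0731 at 20 °C and 0.0683 ± 0.0264 at 4 °C, where array 2 at 4 °C stood alone at 0.0121 and the other cold arrays lay above 0.06. The genes AT5G01960 and AT2G37580 encode RING or U-box proteins, the class that passes ubiquitin to the substrate. AT5G01960 kept 16.4%, from values between 0.346 and 0.480 to values between 0.0249 and 0.108, and AT2G37580 kept 27.5%, with arrays 5 and 6 lowest in both groups. With AT5G48130, the 7 genes named here for this role kept 7.81% to 27.5%.

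Among protein kinases, 4 genes are named here, at 14.1% to 24.4%. Besides AT3G44610, AT5G40030 is an AGC-type kinase, and AT1G72540 resembles the receptor-like cytoplasmic kinases that relay signals from the cell surface. AT5G40030 had 1.83 ± 0.198 at 20 °C and 0.388 ± 0.0649 at 4 °C, a log2 change of -2.26 ± 0.18 (SE). AT1G72540 had 0.499 ± 0.0667 at 20 °C and 0.0879 ± 0.0178 at 4 °C, with arrays 3 and 4 highest in both groups. ATATH8, an atypical kinase of the ABC1-like family, had 0.986 ± 0.0947 at 20 °C and 0.241 ± 0.0701 at 4 °C, and here arrays 1 and 2 were highest at 4 °C. Its log2 change was -2.07 ± 0.23 (SE).

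Enzymes that mature or modify tRNA and rRNA, without which ribosomes read codons poorly, made up 5 genes, with remainders from 12.6% to 26.9%. After AT5G15390, the next was AT1G76050, a pseudouridine synthase, with 0.326 ± 0.0164 at 20 °C and 0.0790 ± 0.0258 at 4 °C. AT2G19870, a second SpoU-type methyltransferase, had 1.08 ± 0.356 at 20 °C and 0.277 ± 0.0493 at 4 °C. Its 20 °C arrays were split, with 0.660 and 0.684 on arrays 1 and 2 and values of 1.18 to 1.35 on the others. The ratio of same-numbered arrays, a matching that the labels do not give, ran from 17.4% to 51.8%. AT1G22660, of the enzymes that add the CCA end to tRNAs, lay between 0.257 and 0.303 with a median of 0.275 at 20 °C, and between 0.0373 and 0.0955 with a median of 0.0755 at 4 °C. AT3G56330, a dimethylguanosine tRNA methyltransferase, lay between 1.14 and 1.45 with a median of 1.28 at 20 °C, and between 0.293 and 0.429 with a median of 0.344 at 4 °C, with a log2 change of -1.90 ± 0.14 (SE).

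Fibrillins and proteins of plastid lipid bodies made up 5 of the named genes. The fibrillins AT5G19940, AT5G09820 and AT2G46910 belong to a family of lipid-binding proteins of plastoglobules, thylakoids and stroma. AT5G19940 lay between 0.581 and 0.792 with a median of 0.647 at 20 °C, and between 0.0794 and 0.214 with a median of 0.149 at 4 °C. AT5G09820, of the fibrillin type linked to plastoquinone synthesis, lay between 0.771 and 1.01 with a median of 0.815 at 20 °C, and between 0.162 and 0.238 with a median of 0.207 at 4 °C. AT2G46910 lay between 0.875 and 0.981 with a median of 0.959 at 20 °C, and between 0.236 and 0.369 with a median of 0.280 at 4 °C. The remainders of these 3 were 23.2%, 23.9% and 31.3%, and that their groups do not overlap was required by the rule. AT3G27110, a metallopeptidase of the plastoglobule, had 0.301 ± 0.0746 at 20 °C and 0.0989 ± 0.0318 at 4 °C, and AT1G32220, a reductase-like protein found there, had 0.622 ± 0.0338 at 20 °C and 0.184 ± 0.0975 at 4 °C, with the highest cold values on arrays 3 and 4.

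Of 14 fibrillin genes, 5 had a single-gene probe, and the list was drawn up after these values were known. AT2G35490, which did not meet the limit of 35%, fell from 1.05 ± 0.209 to 0.569 ± 0.0660, with an adjusted p of 0.012 in limma over pair means that became 0.34 after quantile normalization. AT1G51110 was left out because array 2 at 4 °C listed it at 0. Its other cold arrays lay between 0.0219 and 0.0828, against 0.273 to 0.481 at 20 °C (adjusted p = 0.039, and 0.12 after quantile normalization). The other 3 measured fibrillins were chosen for being lower, so the number of lower genes in the family is not read against all features. Of 17 plastoglobule proteins outside the fibrillin family, 4 had a single-gene probe. Besides the 2 above, the ABC1-like kinase AT3G24190 had 0.502 ± 0.145 and 0.540 ± 0.0881, and AT4G13200 had 0.292 ± 0.0611 and 0.199 ± 0.0547, and neither passed (adjusted p = 0.68 and 0.11 in limma).

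**Figure D3:**
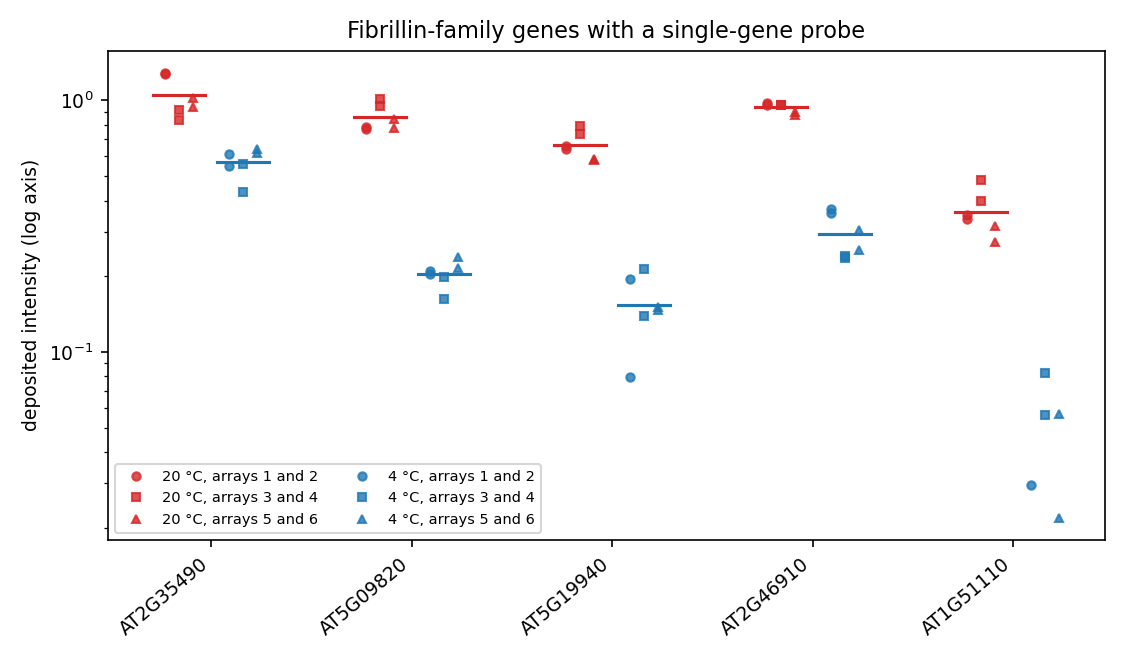
Deposited intensity (log y axis) on each array for the 5 fibrillin genes with a single-gene probe, 20 °C in red and 4 °C in blue, with symbols for pairs of arrays and lines for means over pairs. The groups are separate in each gene, which the rule required of AT5G19940, AT5G09820 and AT2G46910. The value of 0 of AT1G51110 on array 2 at 4 °C cannot be drawn on this axis.

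Other plastid genes of the set belong to transport, an inactive protease family, carbon fixation and translation. AT3G02450, of the inactive FtsH-type proteases of the plastid envelope, had 0.894 ± 0.0756 at 20 °C and 0.182 ± 0.0341 at 4 °C. AT5G22620, the phosphatase that removes a natural inhibitor of Rubisco, 2-carboxyarabinitol phosphate, lay between 0.786 and 1.07 with a median of 0.866 at 20 °C, and between 0.182 and 0.252 with a median of 0.196 at 4 °C. AT1G64510, a plastid ribosomal protein of the S6 type, had 0.157 ± 0.0148 at 20 °C and 0.0488 ± 0.0353 at 4 °C. Its cold arrays ran from 0.00609 on array 1 to 0.0835 on array 6, and its log2 change of -2.20 ± 0.84 (SE) ran from -2.79 to -1.21 when a pair of arrays was left out. The smallest change was found without arrays 1 and 2 at 4 °C.

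RNA processing and protein folding added 4 genes. AT3G15140, an exonuclease of the ERI1 type that trims rRNA ends, had 0.815 ± 0.241 at 20 °C and 0.190 ± 0.0362 at 4 °C, with arrays 3 and 4 at 20 °C at 0.517 and 0.567 and the other 4 at 0.900 or above. The DEAD-box RNA helicase gene AT3G58570 had 0.490 ± 0.0554 at 20 °C and 0.154 ± 0.0299 at 4 °C. The pentatricopeptide repeat gene AT3G22150, of the RNA-binding proteins of organelles, many of which help to edit or process transcripts, had 0.703 ± 0.0688 at 20 °C and 0.234 ± 0.0873 at 4 °C. AT5G35100, a cyclophilin-type peptidyl-prolyl isomerase, had 1.15 ± 0.550 at 20 °C and 0.305 ± 0.0390 at 4 °C. It was the least even of these, since arrays 3 and 4 at 20 °C read 0.499 and 0.578 while the others were at 1.28 to 1.62, and its lowest 20 °C array was only 1.28 times its highest cold array.

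Mitochondrial functions were represented by 5 genes with remainders of 18.7% to 34.8%. ETFQO, the electron-transfer flavoprotein:ubiquinone oxidoreductase that feeds electrons from branched-chain amino acid breakdown into respiration, lay between 0.397 and 0.605 with a median of 0.487 at 20 °C, and between 0.0445 and 0.138 with a median of 0.0956 at 4 °C. Its cold values were highest on arrays 1 and 2, and the log2 change was -2.52 ± 0.31 (SE). AT5G47030, a subunit of the mitochondrial ATP synthase, had 0.269 ± 0.0471 at 20 °C and 0.0866 ± 0.0312 at 4 °C. AT2G34050, an assembly factor of the same enzyme known from yeast as ATP11, had 0.393 ± 0.0548 at 20 °C and 0.137 ± 0.0471 at 4 °C, and in both genes arrays 1 and 2 were highest in each group. AT4G17650, similar to yeast COQ10, which acts with ubiquinone, had 0.355 ± 0.0184 at 20 °C and 0.105 ± 0.0288 at 4 °C. AT5G02050, of the p32 family of matrix proteins, had 0.985 ± 0.0454 at 20 °C and 0.3001 ± 0.0220 at 4 °C.

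Genes of membranes, traffic and the cytoskeleton kept 13.9% to 27.3%, and the lowest was AT1G25500, given above. AT4G14330 is a kinesin of the phragmoplast, the structure that builds the new wall between dividing cells. Its arrays lay between 0.939 and 1.18 at 20 °C (median 1.07), and between 0.171 and 0.253 at 4 °C (median 0.201). Ratios of same-numbered arrays, which the labels do not match, were between 17.5% and 21.4%. AT3G20920, a Sec62-type component of protein import into the endoplasmic reticulum, had 0.337 ± 0.0371 at 20 °C and 0.0607 ± 0.0333 at 4 °C, with arrays 1 and 2 lowest at 4 °C. AT1G67930, a subunit of the conserved oligomeric Golgi complex, had 0.646 ± 0.155 at 20 °C and 0.162 ± 0.0434 at 4 °C. AT4G26770, an enzyme of the CDP-diacylglycerol synthase family, which supplies phospholipid synthesis, had 0.652 ± 0.108 at 20 °C and 0.178 ± 0.0313 at 4 °C. AT2G24810, a second thaumatin-type gene, kept 29.4% and had 0.271 ± 0.0219 at 20 °C and 0.0796 ± 0.0155 at 4 °C, where array 5 at 4 °C read 0.0314 and the other cold arrays were between 0.0838 and 0.0973.

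Some members encode transcription factors. AGL54, a MADS-box factor, lay between 0.215 and 0.298 with a median of 0.245 at 20 °C, and between 0.0240 and 0.0760 with a median of 0.0600 at 4 °C, and its log2 change was -2.20 ± 0.31 (SE). AT1G01250, of the ERF family of ethylene-response and DREB-type factors, had 0.508 ± 0.0723 at 20 °C and 0.123 ± 0.0293 at 4 °C. AT5G52660, a MYB-like factor of the REVEILLE group that works in the circadian clock, had 0.249 ± 0.0232 at 20 °C and 0.0746 ± 0.0350 at 4 °C, with arrays 3 and 4 highest in each group. AT2G28200, a C2H2 zinc finger factor, had 0.384 ± 0.0659 at 20 °C and 0.116 ± 0.0393 at 4 °C. These 4 genes kept 23.1% to 30.2%.

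In primary metabolism, AT1G31220, the glycinamide ribonucleotide transformylase of purine synthesis, had 0.541 ± 0.0426 at 20 °C and 0.165 ± 0.0227 at 4 °C. AT1G15410, an aspartate-glutamate racemase family gene, had 0.604 ± 0.0317 at 20 °C and 0.154 ± 0.0245 at 4 °C, and the phosphoglycerate mutase family gene AT5G62840 had 0.295 ± 0.00780 at 20 °C and 0.0810 ± 0.0357 at 4 °C. AT3G11150, of the 2-oxoglutarate-dependent oxygenases, had 1.29 ± 0.126 at 20 °C and 0.378 ± 0.0324 at 4 °C, a log2 change of -1.78 ± 0.14 (SE). These 4 genes lay between 25.4% and 30.4%.

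A further 5 genes are given because their intensity at 20 °C was among the 8 highest of the set, which is no ranking of transcript amounts. AT1G17744 had 2.06 ± 0.264 at 20 °C and 0.313 ± 0.0414 at 4 °C, or 15.2%, with arrays between 1.72 and 2.37 and between 0.261 and 0.393, and a log2 change of -2.72 ± 0.17 (SE). AT2G23160 had 1.32 ± 0.243 at 20 °C and 0.289 ± 0.0252 at 4 °C, a log2 change of -2.18 ± 0.18 (SE). AT1G76220 had 1.65 ± 0.162 at 20 °C and 0.466 ± 0.0432 at 4 °C, a log2 change of -1.82 ± 0.14 (SE). AT1G27610 had 1.32 ± 0.255 at 20 °C and 0.398 ± 0.0524 at 4 °C, a log2 change of -1.73 ± 0.20 (SE), and array 1 at 4 °C was apart from the others at 0.259. AT4G13680 had 1.74 ± 0.313 at 20 °C and 0.595 ± 0.166 at 4 °C, and its cold values were lowest on arrays 3 and 4, at 0.397 and 0.415, with a log2 change of -1.57 ± 0.28 (SE).

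At the limit of 35%, the last genes inside were AT2G34050 at 34.8%, and AT5G43770 at 34.96% and AT4G18540 at 34.97%. The first genes outside that met the rest of the rule were AT5G34870 at 35.2%, and AT4G29120 and AT1G01080, both at 35.4%. AT5G43770 had 0.676 ± 0.0603 at 20 °C and 0.236 ± 0.0438 at 4 °C, a log2 change of -1.54 ± 0.19 (SE). AT4G18540 had 0.441 ± 0.104 at 20 °C and 0.154 ± 0.0288 at 4 °C, a log2 change of -1.51 ± 0.24 (SE), and AT5G34870, just outside, had means of 0.732 and 0.258 over the 6 arrays of each group. Genes thus lay close to the limit on both sides.

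The other 53 genes kept between 14.3% and 34.8%, with a median of 26.5%, from means of 0.224 to 1.27 at 20 °C to means of 0.0460 to 0.333 at 4 °C. Their log2 changes ran from -3.17 to -1.54. The 4 with the smallest remainder were AT3G01060 at 14.3%, AT1G05340 at 14.6%, AT2G23890 at 17.1% and AT2G21720 at 17.4%. AT1G05340, of the cysteine-rich membrane proteins linked to stress tolerance, lay between 0.527 and 0.746 with a median of 0.680 at 20 °C, and between 0.0652 and 0.117 with a median of 0.106 at 4 °C. AT2G23890, of the HAD superfamily of phosphatases, lay between 0.629 and 1.27 with a median of 1.091 at 20 °C, and between 0.115 and 0.255 with a median of 0.157 at 4 °C. The narrowest separation of the whole set was in this group, at 1.23 times between the lowest 20 °C array and the highest cold array.

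A second kind of probe gave values that the rule had not used. In the annotation, 14 probes listed several genes of which 1 was among the 113, and 13 of these were above 0 on all arrays. Such a signal cannot be assigned to 1 of its genes. The median log2 change was -0.37 on these 13 probes and -2.06 for the same genes on their own probes. In limma over pair means, 5 of the 13 were called lower, or 38.5% beside 49.6% of all features, 2 were called higher, beside 6.87%, and 6 were not called. After quantile normalization 3 were lower and 4 higher. Of the 13, 2 met the rule's limits on overlap and ratio, beside 20.2% of all features with several genes.

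For AGL54 the probe that lists it with other genes was lower too, at 1.27 ± 0.357 at 20 °C and 0.403 ± 0.0631 at 4 °C (adjusted p = 0.0028 in limma over pair means), and at 31.7% it was among the 2 below 35%. The other was the probe listing AT1G13970, at 0.359 ± 0.0448 at 20 °C and 0.117 ± 0.0338 at 4 °C (adjusted p = 0.0042 in limma, and 0.11 after quantile normalization). For the fibrillin AT5G09820 the groups on the second probe went the other way, at 0.649 ± 0.230 at 20 °C and 1.56 ± 0.258 at 4 °C, or 241% (adjusted p = 0.0165 in limma), and with 1 pair of arrays left out the adjusted p reached 0.0503. The probe listing AT2G21960 was likewise higher, at 0.436 ± 0.128 at 20 °C and 1.03 ± 0.153 at 4 °C (adjusted p = 0.0098 in limma). Those listing the fibrillin AT2G46910, with 0.345 ± 0.0290 at 20 °C and 0.440 ± 0.0369 at 4 °C, and the thaumatin-type gene AT4G38670, with 0.678 ± 0.221 at 20 °C and 0.891 ± 0.0903 at 4 °C, were not called (adjusted p = 0.079 and 0.23 in limma), although their means were higher at 4 °C. After quantile normalization both of these were called higher (adjusted p = 0.0015 and 0.0495 in limma).

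The mismatch was not limited to the chosen genes. Over 54 named genes that had both kinds of probe above 0 on all arrays, the log2 changes on the 2 probes had a Pearson r of -0.07 across genes, given as a description since genes are no replicates and all values share the same 12 arrays. In the 41 genes outside the set the median absolute difference between the 2 probes was 0.99 on the log2 scale, with an r of 0.16, and in the 13 genes of the set it was 1.70. The set was chosen for low ratios on one of the 2 probes, and whether this sets the larger difference was not tested. AT2G25870, the 1 gene with 2 probes of its own and no member of the set, gave 47.9% and 57.8%.

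**Figure D4:**
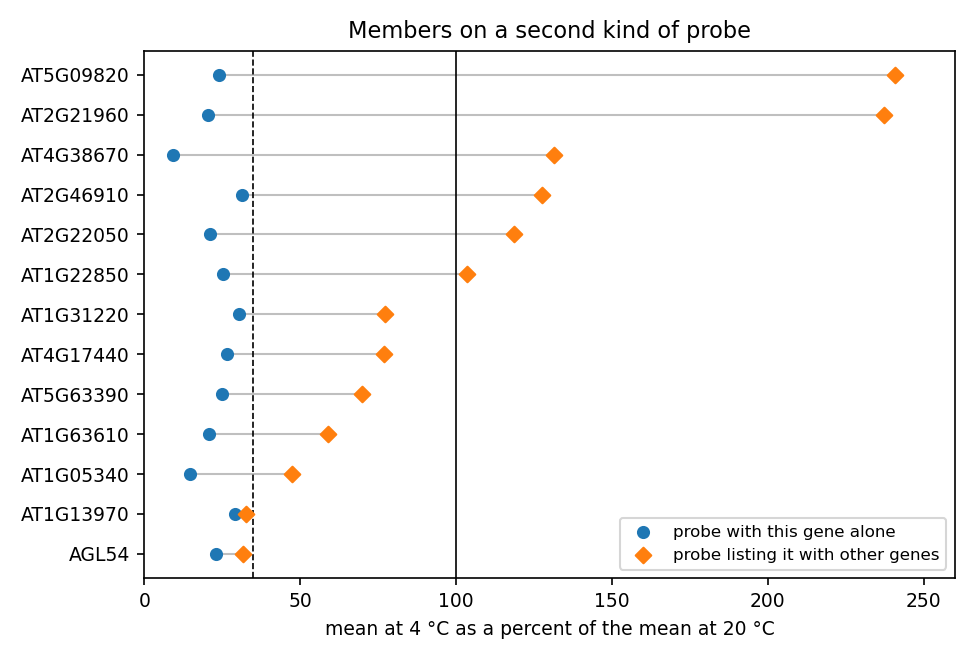
Mean at 4 °C as a percent of the mean at 20 °C (x axis) for 13 genes (y axis), on the probe annotated to the gene alone (blue circles) and on a probe that lists it among several genes (orange diamonds), with a dashed line at 35% and a solid line at 100%. The diamonds run from 31.7% to 241%, and 6 of the 13 lie above 100%.

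Among the 113 genes, chosen for low values at 4 °C, the arrays of a pair agreed well at 20 °C and less well at 4 °C. The relative differences and spreads given next were taken in these genes only. The difference between the arrays of a pair, averaged over the 3 pairs of a group, was 6.41% of their mean at 20 °C and 24.3% at 4 °C in the median gene, and reached 99.2% in AT1G25500 at 4 °C. The spread between pair means, as SD over mean, was 12.4% for the median gene at 20 °C and 20.3% at 4 °C. At 20 °C arrays 3 and 4 were the highest pair in 62 of the 113 genes, arrays 1 and 2 in 33 and arrays 5 and 6 in 18. Among all 614 named probes above 0 on all arrays these counts were 307, 196 and 111. At 4 °C arrays 3 and 4 were highest in 49 genes, arrays 1 and 2 in 35 and arrays 5 and 6 in 29, beside 241, 250 and 123 of the 614.

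The size of the difference changed when the arrays were rescaled. As deposited, the median log2 change of the 113 genes was -2.03, which is 1.28 below that of all features. With median centring it was -1.12, with quantile normalization -1.10 and with cyclic loess -1.07, or 1.28, 1.15 and 1.07 below all features. All 113 were below 0 under each of these 4 scalings, which their choice largely fixes. The rule itself found 20 genes after median centring, 20 after quantile normalization and 16 after cyclic loess, and all of these were among the 113. The 13 genes found under each rescaling were AT5G48130, AT2G31920, AT4G38670, AT4G39570, AT3G59300, AT2G32040, AT5G06930, AT5G15390, AT3G44610, AT3G01060, AT1G05340, AT1G17744 and AT2G23890. The quantile-normalized log2 changes nearest to 0 were -0.38 for AT5G11010, -0.38 for AT3G02030 and -0.42 for AT3G01360.

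**Figure D5:**
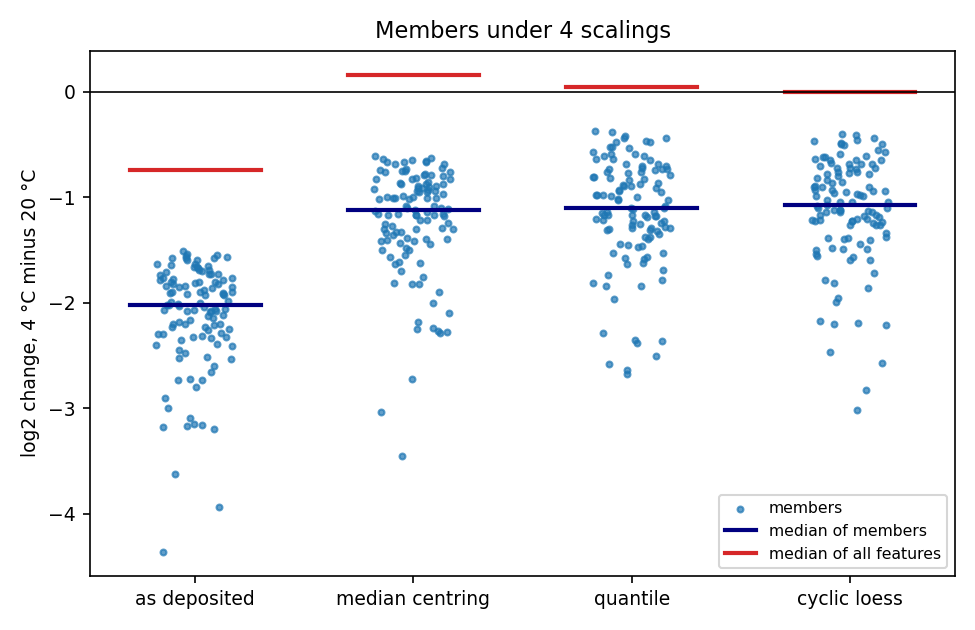
Log2 change from 20 °C to 4 °C (y axis) of each of the 113 genes (points) under 4 ways of scaling the arrays (x axis), with the median of the genes in dark blue and that of all features in red. The points stay below 0 throughout, and under quantile normalization they move by unequal amounts, from -4.36 to -2.51 for AT5G48130.

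The difference between the groups varied with brightness over all features. Ranked by mean intensity and divided into 10 equal parts, the features above 0 on all arrays had median log2 changes of -0.99 in the first and dimmest part, -1.18 in the third and 0.33 in the last and brightest. Each of the 113 genes lay below the median of its own part, by 0.33 to 3.41 on the log2 scale. The rule's limit on the ratio largely fixed this. The highest log2 change among the 113 was -1.51, and the lowest median of any part was -1.18. Whether the trend with intensity has a part in the values of the 113 genes was not tested.

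Nearness in the genome was counted for the 113 genes alone, with no count for the other named probes beside it. Counted in protein-coding genes, 8 pairs were within 20 genes of each other, and the closest were AT5G40030 and AT5G40070, 4 genes apart, at 21.1% and 32.4%. On the array, 2 pairs of the 113 had consecutive probe numbers. The 137 probes next to a chosen one had a median log2 ratio of means of -0.78, against -0.69 for the 3108 probes above 0 on all arrays.

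Of 36 names listed for cold and light response, a pair of them for the same locus and among them the CBF factors and their COR targets, none had a single-gene probe, and 2 were listed on probes with several genes. Markers of green tissue were measured for 6 of 20 genes, with 3 lower and 1 higher in limma over pair means, none of them in the set, and the higher one, PSBW, did not pass after quantile normalization (adjusted p = 0.28 in limma). Of 12 names listed as flower and pollen markers, 2 were measured, AGL54 and SPL, and both were lower, at 23.1% and 41.5% of the 20 °C mean. AGL54 is among the 113, so the rule fixed its direction. Of 7 markers of dividing cells, FBL17 and the histone gene AT1G09200 were measured, at 47.4% and 40.9%, and both passed, although after quantile normalization their log2 changes were -0.0035 and -0.13 and neither passed. No root or seed marker had a single-gene probe. All these counts of lower markers stand beside 49.6% of all features called lower in limma over pair means. The part of other organs or dividing cells in the values of the 113 genes was not tested.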

How the data were processed

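Total RNA of 12 samples, 6 per temperature, was measured on arrays. The table deposited by the authors holds 1 intensity per probe and array, linear and already scaled. The scaling, the scanner and any background correction are not given in the labels used here, and the small number of pairs limits precision. Gene names come from GEO's annotation of the platform, brought up to date with the locus table of TAIR10.1, in which 690 of 692 single-gene probes matched. No genome build is stated for the array, so no coordinates are given. No sequence table was used here.

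Zeros were replaced by the smallest positive value of their array, values were put on the log2 scale, arrays 1 and 2, 3 and 4, and 5 and 6 of each group were averaged, and lmFit and eBayes of limma 3.58.1 (R 4.3.3) were run on all 3438 features, two-sided, with Benjamini-Hochberg adjustment. The 60 features at 0 on all arrays were not counted. A log2 change and its SE come from this fit. On simulated pair means of 3107 features, with 200 lowered by 1 on the log2 scale, the fit recovered 57.8% of these and called 0.255% of the rest. In the data 49.6% of features were called lower, a far larger share, so these rates need not hold there. Within pairs the median absolute log2 difference was 0.0774 to 0.165, between pairs 0.176 to 0.344.

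The genes and all lists were chosen with earlier results of these data known. Values are given for the 10 smallest ratios, the 8 highest means at 20 °C, the genes nearest the limit and those with a symbol. The values of 1 gene with a symbol are not reported here. Product classes and protein relatives, planned as further grounds for naming, could not be formed, so the other genes were named for their roles, after their values were seen. Roles come from general knowledge, since the annotation gives a locus tag alone for 109 of the 113. The planned keyword classes found a word for 2 genes and were not used, and planned promoter and protein comparisons had no sequence. Alternatives were 3 other scalings, single arrays, a replicate block, an offset of 0.0680, dim probes left out, other variance settings, each pair left out and other forms of the rule.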

Additional observations from a re-analysis of the deposited data

Results flagged for a closer look

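In the 226 groups of 6 arrays (113 genes, 2 temperatures), 10 held an array far from the other 5 by Dixon's ratio, 8 of them at 4 °C. For 6 independent values, chance alone flags about 1 in 20 groups. Arrays of a pair resembled each other, so that rate need not hold here, and 10 of 226 is given as a description. At 4 °C, array 2 was low for the Kelch gene AT2G22050 at 0.0121 (next lowest 0.0638) and for AT4G05490 at 0.0474 (next 0.140). Array 5 was low for the thaumatin-type gene AT2G24810 at 0.0314 (next 0.0838) and for AT3G02030 at 0.0496 (next 0.0833). Array 4 was low for AT4G02040 at 0.0829 (next 0.136), and array 1 for AT1G27610 at 0.259 (next 0.379). High cold values were those of array 3 for AT1G53260 at 0.325 (next 0.162) and of array 1 for AT1G65500 at 0.177 (next 0.126). At 20 °C, array 4 was high for AT3G21810 at 0.595 (next 0.452) and array 3 for AT4G05490 at 0.638 (next 0.544).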

How the results depend on the processing

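Over all features, 1675 were called lower and 232 higher. These counts were 645 and 1005 with median centring, 692 and 658 with quantile normalization and 703 and 646 with cyclic loess, where the median log2 change of the 113 genes was -1.12, -1.10 and -1.07 and the rule found 20, 20 and 16 genes. Single arrays as samples gave 2022 lower and 420 higher, and with the replicate number as a block 1995 and 424. The replicate block on pair means gave 1602 and 207. Whether same-numbered arrays of the 2 groups belong together is not given in the labels. Their deviations from the group means had correlations of -0.23 to 0.14, which cannot settle it. Arrays of a pair at 4 °C had only 0.20 to 0.43. An offset before log2 moved the median of the 113 genes to -1.61. Leaving out each pair of arrays gave 1383 to 1621 features lower, 142 to 211 higher (142 without arrays 5 and 6 at 20 °C), a median of -2.08 to -1.96 and 110 to 122 genes by the rule, of which 100 to 110 were among the 113. Limits of 30% and 40% gave 85 and 137 genes. No log2 change of the 113 genes changed sign under any of these alternatives, which their choice by the rule largely fixes. Of the genes, 90 were left when the dimmest 860 features were taken out. Under each rescaling, 107 to 109 moved by more than the spread between pairs. The causes were not tested. Signals near 0 at 4 °C limit how well the largest differences are known.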
